A study of Mus musculus with 6 samples.

Results

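The colony-stimulating factors are the cytokines that direct the survival, growth and activation of myeloid cells, and this report describes 9 of the 22377 genes measured in macrophages of LLC tumors. They are the ligands Csf1, Il34, Csf2 and Csf3 and the receptor genes Csf1r, Csf2ra, Csf2rb, Csf2rb2 and Csf3r. They were taken from the table by gene symbol alone, without regard to their values, and all 9 passed the filter on low counts of edgeR, as did 13884 genes in all. LLC is Lewis lung carcinoma, a mouse tumor cell line that was implanted under the skin of the left groin of male and female mice aged 6 to 8 weeks. Tumors were taken 2 weeks later. According to the methods of the study, the tumors grew in Npm1+/+ and Npm1+/- mice and cells carrying CD45, CD11b and F4/80 were sorted from them, so that Npm1, which encodes the nucleolar chaperone nucleophosmin, was targeted in the whole animal and not in the LLC cells. The sample labels call 3 libraries wt and the other 3 ko and knockdown, give no genotype, and name tumor tissue as the material. Below, the groups are named wt and labelled knockdown, with 3 replicates each.

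CSF1 and IL-34 are the ligands of the receptor tyrosine kinase CSF1R, on which most tissue macrophages and tumor-associated macrophages (TAMs) depend. GM-CSF, the product of Csf2, binds the alpha chain Csf2ra, which then pairs with the common beta chain Csf2rb, a chain shared with the receptors of IL-3 and IL-5, and mice carry a close copy of that chain, Csf2rb2, that serves IL-3 only. G-CSF, the product of Csf3, acts through Csf3r and is best known for driving the formation of neutrophils.

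Total counts lay between 36550775 and 38147320 per library, and a gene without counts could hold up to 3, which corresponded to between 0.0716 and 0.0846 CPM (counts after division by the library size and its TMM factor from edgeR, on a common scale). This limit covers counting error only. Npm1 (chr11:33152287-33163206, minus strand) stood at 142, 380.2 and 381.2 CPM in wt replicates 1, 2 and 3 and at 441, 498.5 and 342.9 CPM in labelled knockdown replicates 1, 2 and 3. The transcript of the targeted gene was therefore not lower in the libraries labelled knockdown (log2 fold change 0.51, SE 0.36, adjusted p = 0.436 by the quasi-likelihood test of edgeR with Benjamini-Hochberg adjustment), and every direction given here is between libraries as labelled. The labels number the libraries as biosamples and name no mice, and a display of these data in the study names fewer mice per group than there are libraries here. Whether libraries shared a mouse is not given in the sources used here, so that n counts libraries and p-values measure the spread between libraries, which may be smaller than that between mice. On the first principal component, with 68% of the variance, wt replicate 1 lay at -108.5 and the other 5 libraries between -4.5 and 52.

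All 5 receptor genes were lower in each library labelled knockdown than in each wt library, by a mean factor of 1.34 to 1.78, whereas 3 of the 4 ligand genes had higher estimates. Csf2 was the only ligand whose groups did not overlap. None of these differences passed an adjusted p of 0.05 in edgeR, and neither did any of the 13884 genes tested, which is 0%. At an unadjusted p under 0.05 all 5 receptor genes were lower, against 8.31% of all genes tested, with 15.2% of all genes at that level in either direction. The groups did not overlap in the 5 receptor genes, against 12.6% of all genes that were lower without overlap and 25.9% without overlap in either direction. Csf2 was higher on both measures, as were 6.9% and 13.3% of all genes, but it passed the filter on low counts only through the libraries in which it was high, so that nothing is read from its place among them. The median log2 fold change was -0.68 over the receptors and 0.022 over all genes tested, and the estimates of the ligands ran from -0.28 to 1.58. RNA was measured in bulk, so that fewer cells of a type and less RNA per cell cannot be told apart.

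**Figure D1:**
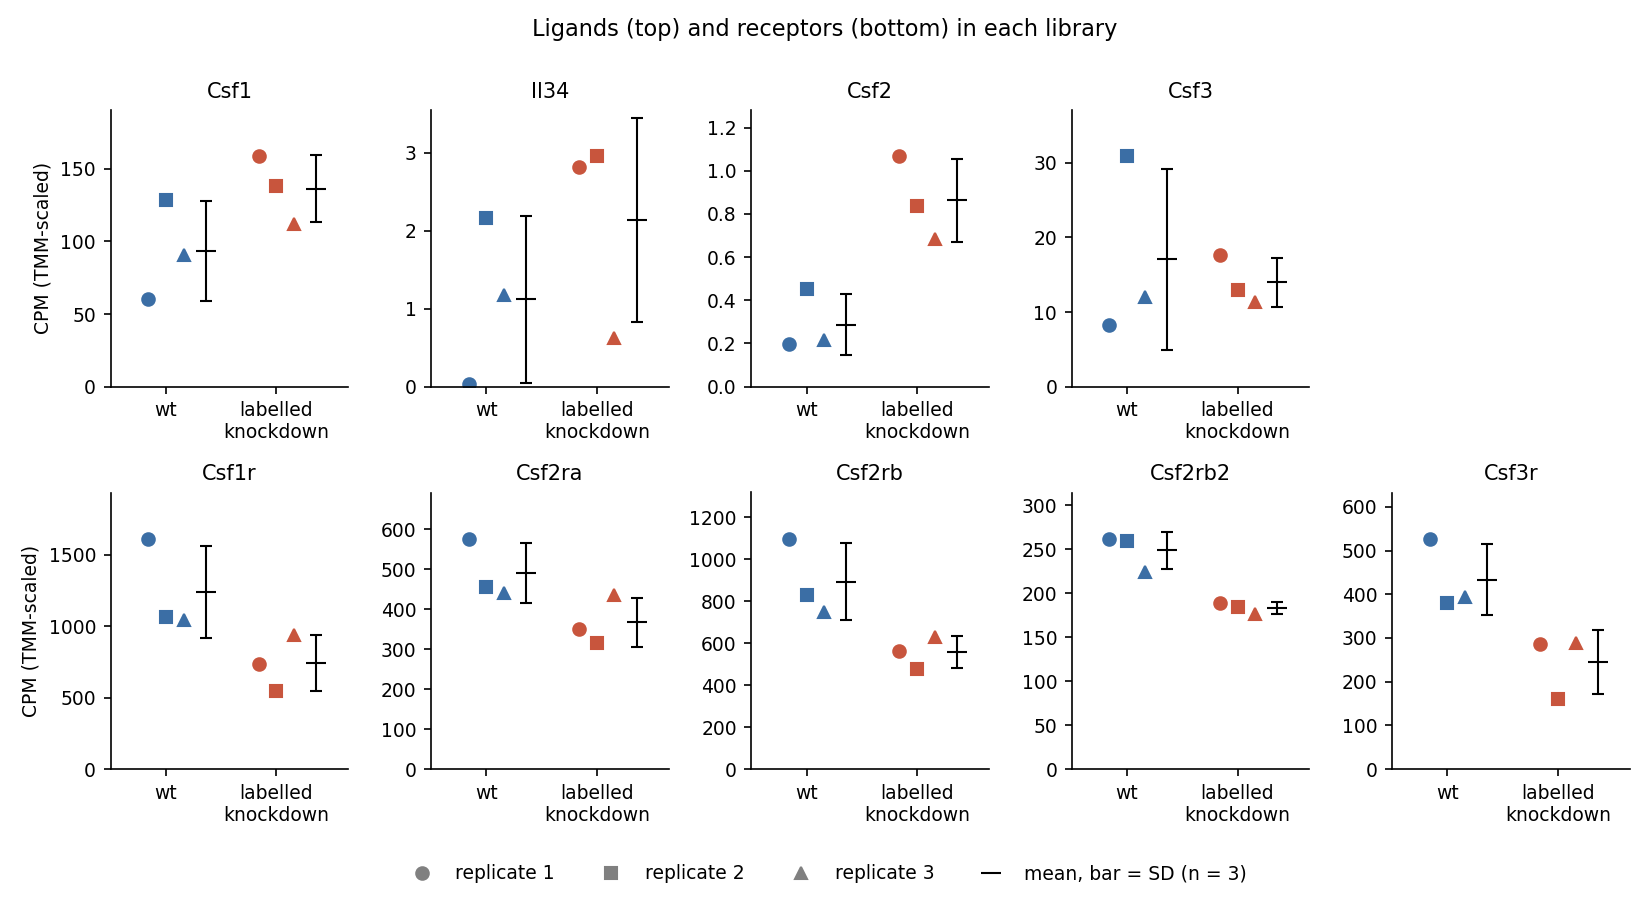
TMM-scaled CPM (vertical axes, each from 0) of the 4 ligand genes in the upper row and the 5 receptor genes in the lower row, with a point for each library and the mean with its SD (n = 3) beside each group. The 5 receptor genes sit lower in all 3 libraries labelled knockdown, wt replicate 1 is the highest library in each receptor and the lowest in each ligand, and only Csf2 among the ligands has groups that do not overlap.

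Csf1 (NCBI Gene 12977; chr3:107741048-107760469, minus strand; GRCm38, as all coordinates here) encodes M-CSF, the main growth factor of macrophages. Its level was 60.31, 128.8 and 90.49 CPM in wt replicates 1, 2 and 3 and 158.7, 138.4 and 112.1 CPM in labelled knockdown replicates 1, 2 and 3. Both highest libraries were labelled knockdown, but labelled knockdown replicate 3 lay below wt replicate 2, so the groups overlapped. The means were 93.2 ± 34.3 and 136.4 ± 23.4 CPM (SD, n = 3), with a log2 fold change of 0.55 (SE 0.27, 95% interval -0.08 to 1.18, adjusted p = 0.341). The estimate was 0.31 without wt replicate 1 and 0.85 without wt replicate 2.

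Il34 (NCBI Gene 76527; chr8:110741829-110805924, minus strand) encodes the second ligand of CSF1R, which is made mainly by epithelial and neuronal cells. It had 1, 77 and 44 counts in wt replicates 1, 2 and 3 and 111, 124 and 23 counts in labelled knockdown replicates 1, 2 and 3. Both groups thus held a low library, and they overlapped. The level was 1.12 ± 1.07 CPM in wt and 2.14 ± 1.31 CPM in labelled knockdown (SD, n = 3), and the log2 fold change of 0.93 had an SE of 1.04, a 95% interval from -1.51 to 3.36 and an adjusted p of 0.611. Leaving out wt replicate 1, which held 1 count, brought the estimate to 0.35, and leaving out wt replicate 2 brought it to 1.81. Il34 overlaps the annotated genes Gm15894 and Gm15895, and whether the counting used strand is not given in the sources used here.

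Csf2 (NCBI Gene 12981; chr11:54247271-54249667, minus strand) encodes GM-CSF, which activates macrophages and supports dendritic cells. It had 7, 16 and 8 counts in wt replicates 1, 2 and 3 and 42, 35 and 25 counts in labelled knockdown replicates 1, 2 and 3. Each library labelled knockdown lay above each wt library, in CPM 0.684 to 1.07 against 0.197 to 0.451. The log2 fold change was 1.58 (SE 0.50, 95% interval 0.42 to 2.73, unadjusted p = 0.0141, adjusted p = 0.328). The mean level of Csf2 was the lowest of the 9 genes, and it would not have passed the filter on its wt counts. On log2 of FPKM plus 1, a scale that understates differences of low genes, limma gave an estimate of 0.50. Csf2 overlaps the annotated gene Gm12223.

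Csf3 (NCBI Gene 12985; chr11:98701263-98703629, plus strand) encodes G-CSF. Its level was 8.32, 30.9 and 12 CPM in wt replicates 1, 2 and 3 and 17.7, 13.0 and 11.4 CPM in labelled knockdown replicates 1, 2 and 3. The values of labelled knockdown lay within the wide range of wt, whose highest library, replicate 2, exceeded all the others. The log2 fold change of -0.28 (SE 0.46, 95% interval -1.36 to 0.79, adjusted p = 0.729) became 0.46 without wt replicate 2, so no direction can be given for Csf3.

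Csf1r (NCBI Gene 12978; chr18:61100598-61132149, plus strand) had the highest level of the 9 genes. It stood at 1612, 1061 and 1042 CPM in wt replicates 1, 2 and 3 and at 732.4, 546.9 and 938.4 CPM in labelled knockdown replicates 1, 2 and 3. Labelled knockdown replicate 2 was the lowest library and wt replicate 1 the highest, and the groups did not overlap. The means were 1239 ± 324 and 739 ± 196 CPM (SD, n = 3), with a log2 fold change of -0.74 (SE 0.25, 95% interval -1.34 to -0.15, unadjusted p = 0.0201, adjusted p = 0.328). Without wt replicate 1 the estimate was -0.51. Csf1r overlaps Hmgxb3 and Mir6983 in the annotation.

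Csf3r (NCBI Gene 12986; chr4:126024550-126044440, plus strand), the receptor of G-CSF that marks neutrophils and is also present on monocytes, had the largest estimate among the receptors. Its level was 527.3, 379.4 and 393.6 CPM in wt replicates 1, 2 and 3 and 285.3, 159.7 and 287.8 CPM in labelled knockdown replicates 1, 2 and 3. Here too labelled knockdown replicate 2 was the lowest library, and wt replicate 2, the lowest wt library, remained above all 3 of the other group. The log2 fold change was -0.83 (SE 0.25, 95% interval -1.41 to -0.24, unadjusted p = 0.0119, adjusted p = 0.328).

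Csf2ra (NCBI Gene 12982; chr19:61223957-61228429, minus strand), the chain that binds GM-CSF itself, stood at 576.2, 454.1 and 441 CPM in wt replicates 1, 2 and 3 and at 349.8, 315.2 and 435.2 CPM in labelled knockdown replicates 1, 2 and 3. Only a narrow gap separated labelled knockdown replicate 3 from wt replicate 3. The log2 fold change was -0.42 (SE 0.17, 95% interval -0.82 to -0.02, unadjusted p = 0.043, adjusted p = 0.328), and it was -0.29 without wt replicate 1.

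Csf2rb (NCBI Gene 12983; chr15:78325752-78353847, plus strand), the common beta chain, stood at 1099, 830.4 and 750.4 CPM in wt replicates 1, 2 and 3 and at 562.8, 477.7 and 631.1 CPM in labelled knockdown replicates 1, 2 and 3. Csf2rb2 (NCBI Gene 12984; chr15:78282507-78305721, minus strand), the chain for IL-3, stood at 262.2, 259.9 and 224.5 CPM in wt replicates 1, 2 and 3 and at 189, 184.4 and 176 CPM in labelled knockdown replicates 1, 2 and 3. In both genes all 3 libraries labelled knockdown were below all 3 wt libraries, and the spread within groups was smallest in Csf2rb2. The log2 fold change was -0.68 (SE 0.19, 95% interval -1.12 to -0.25, unadjusted p = 0.00726, adjusted p = 0.328) for Csf2rb. For Csf2rb2 it was -0.44 (SE 0.12, 95% interval -0.71 to -0.17, unadjusted p = 0.00577, adjusted p = 0.328), with means of 249 ± 21.1 and 183 ± 6.62 CPM (SD, n = 3). Exact permutation tests of the TMM-scaled CPM over libraries, two-sided, gave p = 0.1 for each of the 5 receptor genes and for Csf2, and 6 libraries in groups of 3 cannot give a smaller value.

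The pair of beta chain genes lies side by side on chromosome 15 and is nearly the same in sequence, which bears on how reads are assigned. Their coding sequences, of 2688 bases in Csf2rb and 2634 bases in Csf2rb2 in GENCODE M21, were identical at 95.2% of 2628 aligned bases, and the longest identical run was 242 bases. Of all stretches of 100 bases in the coding sequence of Csf2rb, 11% also occurred in that of Csf2rb2, and of stretches of 150 bases 6.5% did. How the authors counted reads that match both genes is not given in the sources used here, so the level of each gene is uncertain where reads could be divided between them. The 60 coding bases printed here, bases 304 to 363 of Csf2rb and 307 to 366 of Csf2rb2, each from the 5′ end of the coding sequence, hold 13 differences, set in capitals, and are shown as a stretch in which reads of the pair can be told apart.
Csf2rb: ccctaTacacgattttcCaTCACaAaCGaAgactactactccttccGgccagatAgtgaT
Csf2rb2: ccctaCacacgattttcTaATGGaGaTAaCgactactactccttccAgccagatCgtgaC
As a share of Csf2rb, the FPKM of Csf2rb2 was 24.5%, 32.2% and 30.8% in wt replicates 1, 2 and 3 and 34.5%, 39.7% and 28.7% in labelled knockdown replicates 1, 2 and 3, so that the groups overlapped in the balance of these chains.

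**Figure D2:**
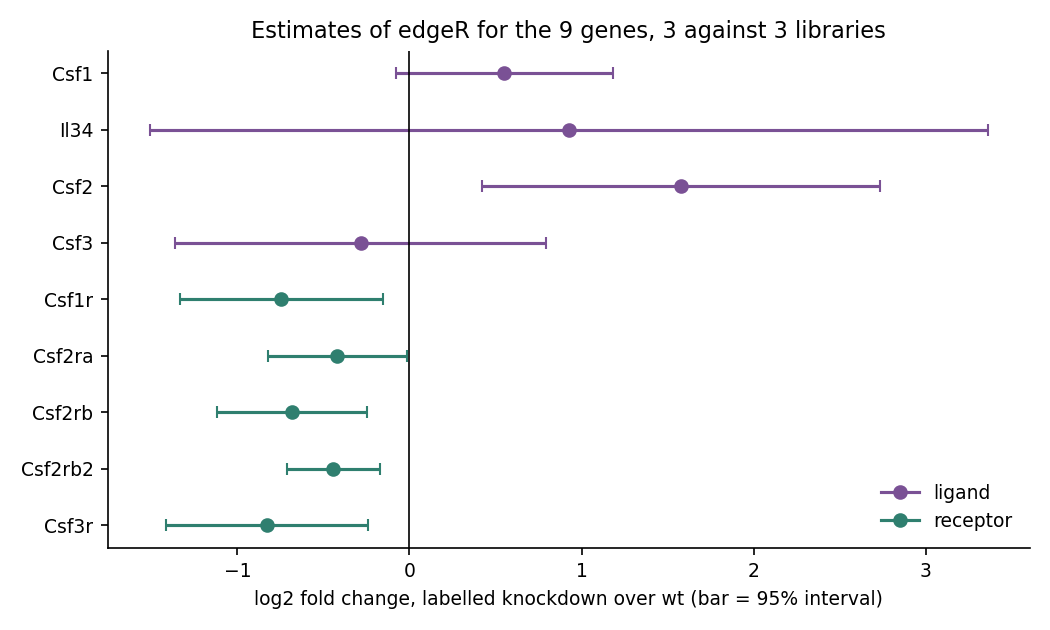
log2 fold change of each gene, labelled knockdown over wt (horizontal axis, edgeR), with 95% intervals as bars, for 3 against 3 libraries. The intervals of the 5 receptor genes lie below 0 and that of Csf2 lies above 0, those of Csf1, Il34 and Csf3 include 0, and no gene passed after adjustment over 13884 genes.

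The order of the libraries was nearly shared among the receptors. From low to high, Csf1r, Csf2ra and Csf2rb each ran from labelled knockdown replicate 2 through replicate 1 to replicate 3, and so did Csf3r, where replicates 1 and 3 differed little. Csf2rb2 had labelled knockdown replicate 3 as its lowest library. In all 5 receptor genes wt replicate 1 was the highest library, and in all 4 ligand genes it was the lowest. The calls depended on the libraries and the test together. With wt replicate 1 and labelled knockdown replicate 3 left out, DESeq2 called 4 of the 9 genes, all of them receptors and lower, against 5.91% of all genes tested in that fit, with an adjusted p of 0.00192 for Csf1r, 0.005 for Csf2rb, 0.00855 for Csf3r and 0.0373 for Csf2ra. The fit rests on 2 libraries per group. In each of these 4 genes, the libraries left out were the highest of their own group, so the choice itself narrowed the range within groups. Nothing is read from these calls. Over the 17 alternatives tried, the adjusted p of these 4 genes reached 0.701, edgeR on the same 4 libraries called none of the 9, and DESeq2 on all 6 libraries also called none.

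The promoter windows of 3 receptor genes are shown because each of these genes was lower in all libraries labelled knockdown. RefSeq promoter windows on GRCm38.p6 were at hand for 5 of the 9 genes, and the 250 bases before the RefSeq start of transcription were searched on both strands for 5 motifs. GAGGAA, a core of the sites bound by PU.1, the master regulator of myeloid cells that Spi1 encodes, occurred in all 3 receptor windows, and 23.3% of the 32851 windows in the reference hold it. It was not found in the windows of Csf1 and Csf2, which says only that these letters are not there. The 3 windows are printed 5′ to 3′ on the strand of the gene, with GAGGAA or its reverse complement in capitals. They are those of Csf3r (chr4:126024409-126024658, plus strand, 1 match 86 bases before the RefSeq start), Csf2rb2 (chr15:78305722-78305971, minus strand, 1 match 167 bases before it) and Csf2ra (chr19:61228419-61228668, minus strand, 2 adjoining matches 14 and 8 bases before it). The gene coordinates given above are those of GENCODE, whose starts differ. The last 109 bases of the Csf3r window, with its match, and the last 11 bases of the Csf2ra window lie within the GENCODE gene, and of the 2 matches of Csf2ra 1 lies within it and the other across its start. The match of Csf2rb2 lies before the start in both annotations.
Csf3r: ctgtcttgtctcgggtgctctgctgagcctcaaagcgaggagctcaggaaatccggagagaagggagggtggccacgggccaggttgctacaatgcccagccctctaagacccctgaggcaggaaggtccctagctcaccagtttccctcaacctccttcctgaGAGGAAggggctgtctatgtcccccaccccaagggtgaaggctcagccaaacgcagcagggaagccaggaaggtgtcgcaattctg
Csf2rb2: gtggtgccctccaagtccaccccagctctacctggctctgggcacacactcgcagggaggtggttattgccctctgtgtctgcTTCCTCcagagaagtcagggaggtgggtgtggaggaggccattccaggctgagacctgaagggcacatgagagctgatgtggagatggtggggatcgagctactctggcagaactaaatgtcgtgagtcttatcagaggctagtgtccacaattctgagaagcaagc
Csf2ra: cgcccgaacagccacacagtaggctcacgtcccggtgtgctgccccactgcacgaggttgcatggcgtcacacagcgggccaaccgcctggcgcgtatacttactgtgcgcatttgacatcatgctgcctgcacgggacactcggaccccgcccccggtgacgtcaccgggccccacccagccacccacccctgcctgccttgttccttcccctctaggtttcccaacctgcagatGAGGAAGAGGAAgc
The STAT motif TTCNNNGAA was found in the window of Csf2rb2 alone, against 7.02% of all windows. The NF-kB motif GGGNNNNNCC occurred in those of Csf1, Csf3r and Csf2ra, against 45.8%. The C/EBP motif TTNNGCAA occurred in that of Csf2, against 9.56%, and the AP-1 motif TGANTCA, in 6.75% of all windows, occurred in none of the 5. A match is a description of the sequence, and binding was not measured here.

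Levels of different genes were compared only per length, in the FPKM values that the authors deposited. Over the 6 libraries, the mean FPKM was 250.4 for Csf1r (range 161.8 to 387.9), 146.6 for Csf2rb (112.3 to 210.2), 71.7 for Csf3r (39.5 to 106.1), 45.3 for Csf2rb2 (35.97 to 51.6) and 30.9 for Csf2ra (26.3 to 39.2). Each ligand gene had a lower mean than each receptor gene. The mean was 24.2 FPKM for Csf1 (11.7 to 34.5), 7.98 for Csf3 (4.00 to 14.9), 0.616 for Il34 (0.0095 to 1.23) and 0.462 for Csf2 (0.143 to 0.874). Among neighbours in this order, the ranges of Csf2rb and Csf3r and those of Csf3 and Il34 did not overlap, while every other pair of neighbours overlapped. Csf2ra and Csf1, and likewise Il34 and Csf2, stood in the given order in only 4 of the 6 libraries, and Csf3r and Csf2rb2 in 5. The place of Csf2ra rests on its length. The length implied by its counts and FPKM was 13718 bases, more than the 4473 bases that the gene spans in GENCODE and the 11271 bases in RefSeq. With the 2871 exonic bases of GENCODE, chosen after this was seen, Csf2ra moved from rank 5 to rank 2, at 149.3 CPM per kilobase against 171.3 for Csf1r and 99.7 for Csf2rb.

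**Figure D3:**
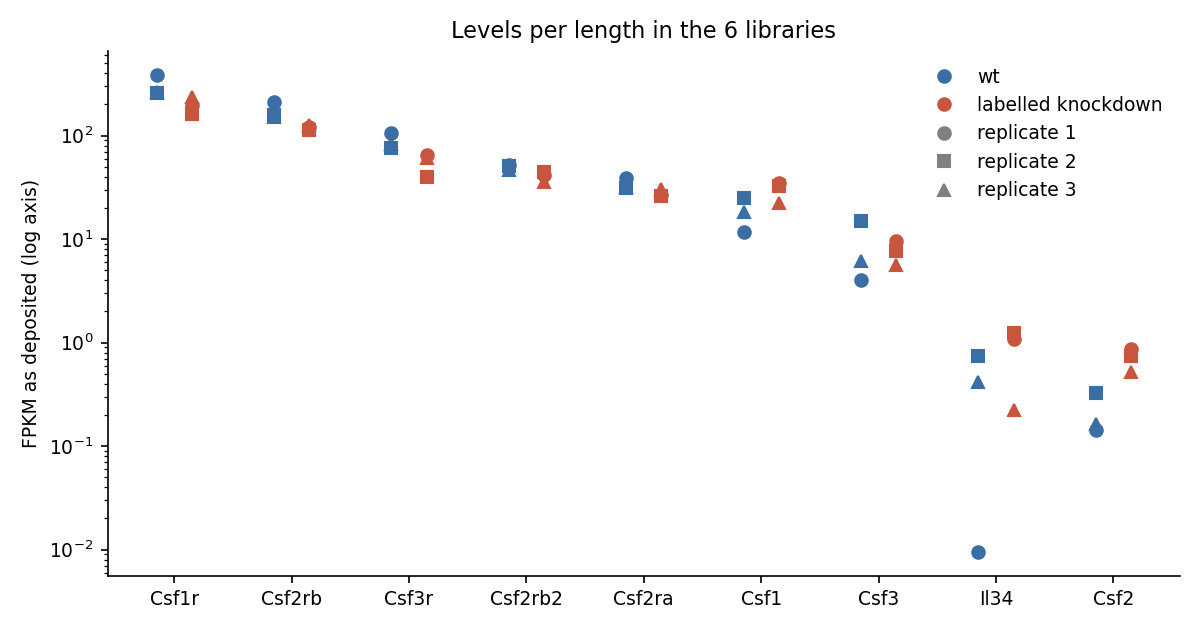
Deposited FPKM of the 9 genes in each of the 6 libraries (vertical log axis), ordered by the mean over all libraries. Csf1r is highest and Csf2 lowest in the mean, the means of the receptor genes stand above those of the ligand genes, and wt replicate 1 holds 0.0095 FPKM of Il34, which is 1 count.

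Ratios within a library do not depend on its scaling. The FPKM of Csf1 was 3.00%, 9.75% and 6.97% of that of Csf1r in wt replicates 1, 2 and 3 and 17.4%, 20.3% and 9.59% in labelled knockdown replicates 1, 2 and 3. Labelled knockdown replicate 3 lay just under wt replicate 2, so the groups overlapped. The FPKM of Csf2 was 0.0681%, 0.206% and 0.108% of that of Csf2rb in wt and 0.721%, 0.665% and 0.412% in labelled knockdown, without overlap. The ratio of Csf3 to Csf3r, from 3.77% to 19.5% in wt and from 9.43% to 19.5% in labelled knockdown, overlapped. Within the GM-CSF receptor, the FPKM of the alpha chain Csf2ra was 18.6%, 19.4% and 20.9% of that of Csf2rb in wt and 22.1%, 23.5% and 24.5% in labelled knockdown. Each library labelled knockdown thus held more Csf2ra relative to Csf2rb than each wt library. These ratios were not tested beyond their ranges. The share of all gene pairs without overlap was not computed, so nothing is read from the ratios that separate. That of Csf2 to Csf2rb also rests on a gene that passed the filter only through the libraries in which it was high. The ratio of Csf2ra to Csf2rb carries the uncertain length, which is the same in every library. Together the 5 receptor genes took 0.380%, 0.279% and 0.280% of all counts in wt replicates 1, 2 and 3 and 0.223%, 0.193% and 0.239% in labelled knockdown replicates 1, 2 and 3.

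Transcripts that mark macrophages were also lower in most libraries labelled knockdown. The summed level of 12 macrophage markers, a list without any of the 9 genes, was 20090, 16370 and 15440 CPM in wt replicates 1, 2 and 3 and 11820, 9225 and 15400 CPM in labelled knockdown replicates 1, 2 and 3. Most of this sum was Lyz2, at 14140, 10370 and 9354 CPM in wt replicates 1, 2 and 3 and 7499, 5667 and 9698 CPM in labelled knockdown replicates 1, 2 and 3. Itgam was the next largest part, so the sum mainly follows these genes. Of the 12 genes, 5 were lower at an unadjusted p under 0.05, against 8.31% of all genes tested. Without overlap 6 were lower, against 12.6% of all genes, and none passed after adjustment. The median log2 fold change was -0.50, with Mertk (-0.16), Aif1 (-0.13) and Ptprc (-0.09) closest to 0. Among the genes of the sorting markers, Adgre1, which encodes F4/80, stood at 301.7, 201 and 222.4 CPM in wt and at 165.2, 127.2 and 223.8 CPM in labelled knockdown. Itgam, which encodes CD11b, stood at 2708 to 2975 CPM in wt and at 1492 to 2660 CPM in labelled knockdown. Ptprc, which encodes CD45, overlapped between 957.3 to 1393 and 927.8 to 1189 CPM. All 3 sorting markers were expressed in each library.

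Relative to the summed macrophage markers, the receptor differences were smaller. Csf1r amounted to 8.03%, 6.48% and 6.75% of this sum in wt replicates 1, 2 and 3 and to 6.19%, 5.93% and 6.09% in labelled knockdown replicates 1, 2 and 3, which still did not overlap. Csf2ra (2.78% to 2.87% against 2.83% to 3.42%), Csf2rb (4.86% to 5.47% against 4.10% to 5.18%), Csf2rb2 (1.31% to 1.59% against 1.14% to 2.00%) and Csf3r (2.32% to 2.63% against 1.73% to 2.41%) overlapped. The share of all genes without overlap on this scale was not computed, so nothing is read from the place of Csf1r. Csf1 amounted to 0.300%, 0.787% and 0.586% in wt and to 1.34%, 1.5% and 0.728% in labelled knockdown. When edgeR was scaled to these markers, a choice made after seeing the data, the median log2 fold change of all genes was 0.576. The log2 fold changes then were -0.22 for Csf1r, -0.13 for Csf2rb and -0.32 for Csf3r, while Csf2ra (0.11) and Csf2rb2 (0.13) changed sign, and the adjusted p of the 9 genes lay between 0.174 and 0.732. This scaling moved the estimates of all genes by about the same amount, with the median going from 0.022 to 0.576. That all 5 receptor estimates lay below 0.576, and those of Csf1 (1.09), Csf2 (2.13) and Il34 (1.51) above it, therefore only restates the main fit. The part of the macrophage markers in the receptor result was not tested further.

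**Figure D4:**
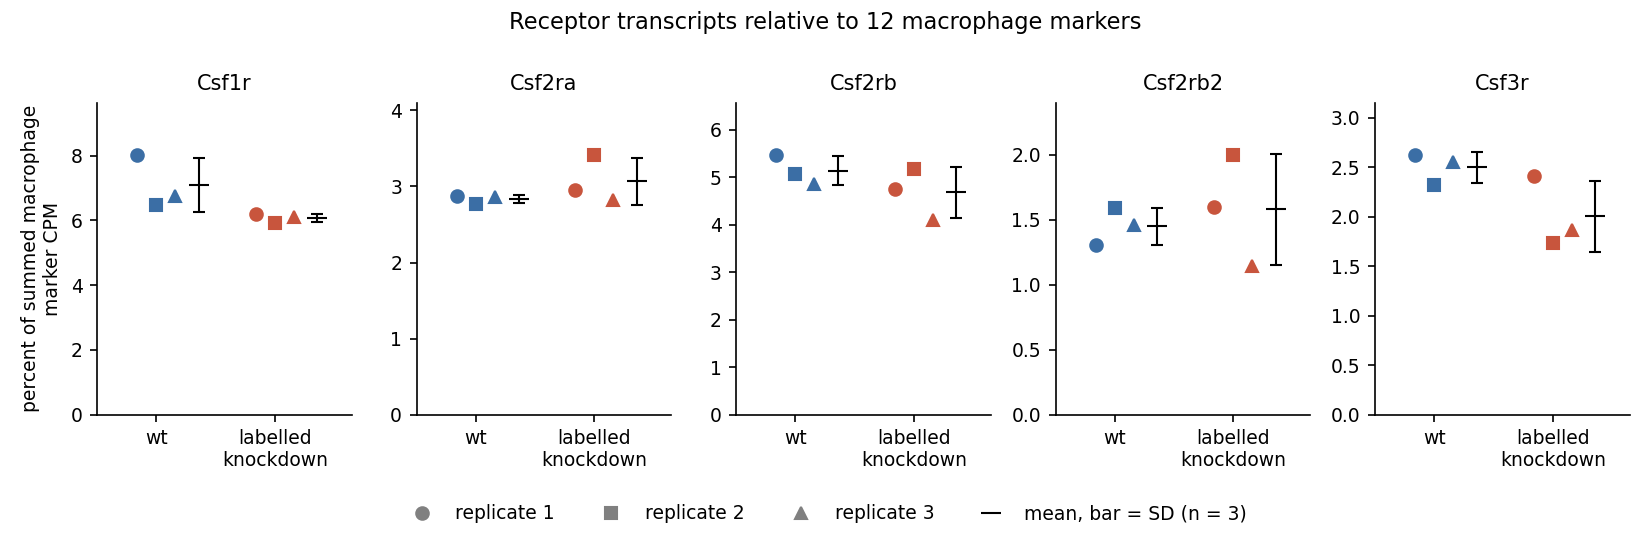
CPM of each receptor gene as a percent of the summed CPM of 12 macrophage markers (vertical axes from 0), with a point per library and the mean with its SD (n = 3). Most of that sum is Lyz2. Among these receptor genes only Csf1r has groups that do not overlap, with 5.93% to 6.19% in the libraries labelled knockdown against 6.48% to 8.03% in wt. The share of all genes without overlap on this scale was not computed.

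Transcripts of other cell types were also present, and some of them differed with the labels. For the counts below, 8.31% of all genes tested were lower and 6.9% higher at an unadjusted p under 0.05 in edgeR. For neutrophils, on which Csf3r is abundant, the 12 markers summed to 1404, 1517 and 1730 CPM in wt replicates 1, 2 and 3 and to 1329, 680.9 and 1305 CPM in labelled knockdown replicates 1, 2 and 3, with 6 of 11 tested genes lower at an unadjusted p under 0.05 and a median log2 fold change of -0.95. S100a8 stood at 330.4 to 405.8 CPM against 160.5 to 338.6 CPM, S100a9 at 727.8 to 969.7 CPM against 355.9 to 762.2 CPM, and the defining marker Ly6g at 1.76 to 2.11 CPM against 0.573 to 1.60 CPM. S100a8 and S100a9 made up most of the sum. Their log2 fold changes, -0.45 (adjusted p = 0.385) and -0.46 (adjusted p = 0.394), were smaller in size than the median of the list. The lowest library in this list, labelled knockdown replicate 2, was also the lowest in Csf3r. It was the lowest as well in Csf1r, Csf2ra, Csf2rb and the macrophage marker sum, so this match is not particular to Csf3r. Fibroblast markers, from a cell type that makes CSF1, summed to 32.7, 491.1 and 304.8 CPM in wt and to 714.6, 614.7 and 368.6 CPM in labelled knockdown, with 3 of 10 genes higher at an unadjusted p under 0.05 and a median of 1.35. Most of this sum was Col3a1, at 19.01, 426.2 and 244.8 CPM in wt and at 604.5, 473.6 and 307.7 CPM in labelled knockdown. Its groups overlapped (log2 fold change 1.006, SE 0.85, adjusted p = 0.5005). The 3 fibroblast genes that were higher were at or under 5.52 CPM in every library. Col1a1, which is 1 of them, stood at 0.561 to 1.80 CPM in wt and at 1.45 to 5.52 CPM in labelled knockdown. T cell markers, from a cell type that makes GM-CSF, summed to 26.9, 33.3 and 96.2 CPM in wt and to 87.3, 214.8 and 77.6 CPM in labelled knockdown, with 3 of 6 tested genes higher and a median of 1.24, and Cd3e ranged from 1.91 to 10.6 CPM in wt and from 5.64 to 18.9 CPM in labelled knockdown. The methods describe a sort for CD45, CD11b and F4/80, whereas the labels name tumor tissue. Transcripts of neutrophils, fibroblasts and T cells were present in each library under either description. The part of these cell types in the differences of the ligands and of Csf3r was not tested.

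In the remaining lists, 0 genes reached an unadjusted p under 0.05 and the sums of the groups overlapped. The epithelial or carcinoma markers summed to 36.1 to 137.7 CPM in wt and to 129.1 to 191.7 CPM in labelled knockdown (median log2 fold change 0.17), with Epcam at or under 0.716 CPM in every library. Krt8 stood at 9.90, 116.7 and 59.1 CPM in wt replicates 1, 2 and 3 and at 170.9, 165.3 and 105.5 CPM in labelled knockdown replicates 1, 2 and 3 (log2 fold change 1.25, SE 0.71, adjusted p = 0.368). The other tested genes of this list had estimates of 0.76 (Krt18), -0.41 (Cdh1) and -1.03 (Krt7). The medians were 0.20 for endothelial, 0.95 for NK cell, -0.09 for B cell, -0.03 for dendritic cell and -0.58 for mast cell, basophil or eosinophil markers. Pecam1, the endothelial marker also present on leukocytes, stood at 25.5 to 31.7 CPM in wt and at 21.6 to 24.0 CPM in labelled knockdown. No marker gene in the table was at 0 in all 6 libraries.

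**Figure D5:**
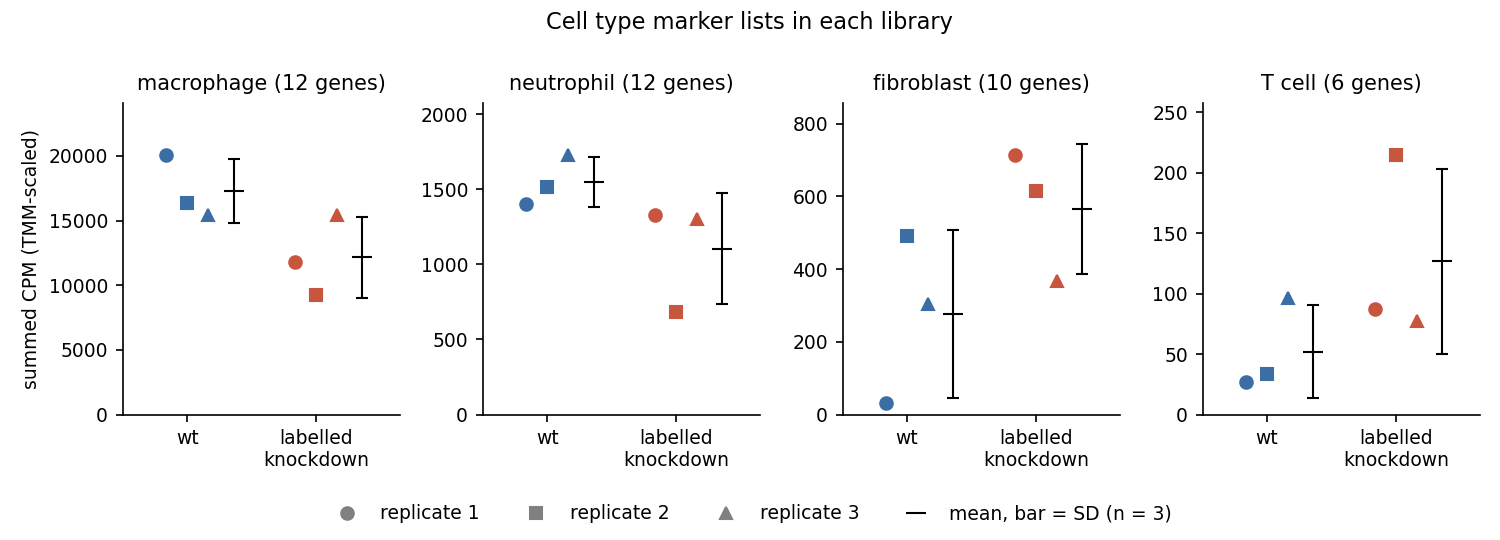
Summed TMM-scaled CPM of 4 marker lists (vertical axes from 0), with a point per library and the mean with its SD (n = 3). The macrophage sums, most of which is Lyz2, lie at 15440 to 20090 CPM in wt against 9225 to 15400 CPM in the libraries labelled knockdown. The library with the least fibroblast transcript is wt replicate 1, at 32.7 CPM.

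Beyond ligands and receptors, 6 lists with 71 genes covered the rest of the pathway, and 67 were tested. Of these, 22 were lower and 2 higher at an unadjusted p under 0.05, against 8.31% and 6.9% of all genes, none passed after adjustment, and the median log2 fold change was -0.35. Of the other cytokines and receptors of the beta common chain only Il3ra was high enough to be tested, with a log2 fold change of -0.36 (SE 0.22, adjusted p = 0.381). Il3 and Il5 were at or under 0.127 CPM in every library. The partners of IL-34 and CSF1 and their sheddases, which include Sdc1, Trem2, Adam17 and Adam10, had 5 genes tested, none at an unadjusted p under 0.05, and a median of -0.10.

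The list of receptor signalling holds the kinases, adaptors and STAT factors below these receptors. At an unadjusted p under 0.05, 11 of 24 genes were lower and 0 higher, against 8.31% and 6.9% of all genes tested. The median log2 fold change was -0.39. Vav1, a guanine nucleotide exchange factor, stood at 211.2, 141.5 and 146.8 CPM in wt and at 99.96, 85.14 and 113 CPM in labelled knockdown (log2 fold change -0.74, SE 0.19, adjusted p = 0.328). Pik3cd, the leukocyte catalytic subunit of PI3-kinase, had an estimate of -0.74 (SE 0.21, adjusted p = 0.328). Jak2, the kinase bound to the beta common chain, was the only gene of this list that was higher without overlap. It stood at 270.8, 352 and 379.8 CPM in wt and at 400.5, 405.1 and 426.5 CPM in labelled knockdown (log2 fold change 0.30, SE 0.15, adjusted p = 0.347).

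Among 14 feedback genes and inhibitors, 5 were lower and 1 higher at an unadjusted p under 0.05, against 8.31% and 6.9% of all genes tested. Their median was -0.29. Ptpn6, the phosphatase SHP-1 that restrains CSF1R and the GM-CSF receptor, stood at 385.8, 223.1 and 238.6 CPM in wt and at 146.6, 102.6 and 192 CPM in labelled knockdown (log2 fold change -0.94, SE 0.29, adjusted p = 0.328). Sh2b3, the adaptor LNK, had an estimate of -0.61 (SE 0.25, adjusted p = 0.328). In the other direction, Cblb, a ubiquitin ligase, stood at 58.2, 49.8 and 66.4 CPM in wt and at 97.0, 153.4 and 77.5 CPM in labelled knockdown (log2 fold change 0.91, SE 0.25, adjusted p = 0.328). Spry2, an inhibitor of ERK signalling, had a log2 fold change of 0.32 (SE 0.16, adjusted p = 0.338).

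Of 11 lineage transcription factors, 4 were lower and 0 higher at an unadjusted p under 0.05, against 8.31% and 6.9% of all genes tested. Their median was -0.40. Spi1 stood at 440.9, 301.8 and 280.2 CPM in wt and at 205.8, 158.5 and 245.7 CPM in labelled knockdown (log2 fold change -0.75, SE 0.23, adjusted p = 0.328). Its order of libraries was that of Csf1r, Csf2ra and Csf2rb and differed from those of Csf2rb2 and Csf3r. Cebpb, a C/EBP factor of activated macrophages, had the largest of these estimates in size that was without overlap, at -0.82 (SE 0.28, adjusted p = 0.328). Among 12 genes known to respond to GM-CSF, 2 were lower and 1 higher at an unadjusted p under 0.05, with a median of -0.12. Over all genes tested the shares were 8.31% and 6.9%, and counts this small are not set apart from them. Irf4, a transcription factor of this response, stood at 34.6, 27.5 and 30.6 CPM in wt and at 40.7, 71.6 and 37.6 CPM in labelled knockdown (log2 fold change 0.69, SE 0.25, adjusted p = 0.328), without overlap, and Bhlhe40 had an estimate of 0.26 (SE 0.12, adjusted p = 0.333). Kdm6b, a histone demethylase, had an estimate of -0.40 (SE 0.15, adjusted p = 0.328), and Bcl2l1, which encodes the survival factor BCL-XL, of -0.24 (SE 0.13, adjusted p = 0.365). Genes of this list thus had estimates on both sides of 0.

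For each of the 9 genes, the 2 genes with the most similar profile were found by the root mean square difference of centred log2 CPM over the 6 libraries, as a description. Those of Csf1r were Man2b1, a lysosomal mannosidase (0.021), and Plcg2, a phospholipase (0.027). Those of Csf2ra were Snx1 (0.023) and Arrb2 (0.024), those of Csf2rb were Rxra (0.026) and Usb1 (0.043), those of Csf2rb2 were Rhbdf2 (0.045) and Sema4d (0.045), and those of Csf3r were Ifitm5 (0.078) and Ugt1a7c (0.09). Among the ligands, Csf1 was closest to Rhoc (0.061) and Cd63 (0.073), Csf3 to Gm9917 (0.097) and H2bc9 (0.186), Csf2 to Bard1 (0.164) and Mc1r (0.186), and Il34 to Hoxa10 (0.241) and Inava (0.341). These neighbours depended on wt replicate 1, the library that lay apart, since only 3 of the 18 were kept without it. They were Usb1, Rhbdf2 and Gm9917.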

How the data were processed

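RNA of 6 libraries, 3 wt and 3 labelled knockdown, was compared. Per the methods of the study, RNA was isolated from sorted macrophages with the RNeasy kit and turned into cDNA with a SMARTer kit for low input, and paired ends were read on a NovaSeq. The labels describe TRIzol extraction of tumor tissue and a small RNA library instead, and the descriptions were not reconciled. The authors deposited raw counts for each gene. They also deposited FPKM values, which equal these counts over 1 length per gene and the library total. The build is mm10 per the submitters' processing notes. Aligner, counting tool and annotation are not given in the sources used here. Both tables were mapped in full to libraries by column name.

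Counts were fitted with edgeR 4.0.16 in R 4.3.3 (filterByExpr, TMM, glmQLFit, glmQLFTest), with p-values of the 13884 tested genes adjusted by Benjamini-Hochberg and a threshold of 0.05. Every adjusted p without a named tool is from this fit. The SE was taken as the size of the log2 fold change over the square root of F, and intervals are at 95%. Alternatives used DESeq2 1.42.0, and limma 3.58.1 on log2 of FPKM plus 1 or 0.1. Profiles used log2 CPM with a prior count of 2. On simulated counts of 13618 genes with 200 changed by 1.5 on the log2 scale, edgeR recovered 86% of them and called 13 others. This change is larger than any receptor estimate, and no simulated library was made to lie apart as wt replicate 1 does. The 86% is therefore no measure of power for the receptor genes. Depth was 36550775 counts or more per library.

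The genes named were the 9 genes, Npm1, defining markers, up to 2 genes per direction with the largest estimate without overlap in each of 6 pathway lists, and the 2 nearest profiles per gene. Il3, Il5 and the members listed by name of the IL-34 partners fall outside this rule and were named after their values were seen. So were the markers Lyz2, Mertk, Aif1, Col3a1, Krt8, Krt18, Cdh1 and Krt7. The genes, the 6 pathway lists and the 10 marker lists were chosen with earlier results of these data known, and no list was tested as a set. Coordinates are from GENCODE M21, promoter windows from RefSeq on GRCm38.p6. No window was at hand for 4 of the 9 genes.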

Additional observations from a re-analysis of the deposited data

How the results depend on the processing

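Over 17 other settings, 144 of 151 estimates of the 9 genes kept their direction and their side of the threshold, 4 passed it and 3 changed sign. Csf2 and Il34 had 16 settings each, since both drop out where at least 10 counts are required in every library. The 3 that changed sign were those of Csf3, to 0.042 and 0.065 with limma on log2 FPKM plus 1 and plus 0.1 and to 0.46 without wt replicate 2, with -0.62 to 0.46 as the range when 1 library was left out. Ranges over these settings were -0.96 to -0.51 for Csf1r, -0.57 to -0.26 for Csf2ra, -0.81 to -0.51 for Csf2rb, -0.53 to -0.28 for Csf2rb2, -0.97 to -0.60 for Csf3r, 0.28 to 0.85 for Csf1, 0.50 to 2.05 for Csf2 and 0.32 to 1.81 for Il34. Scaling to the macrophage markers, chosen after seeing the data, turned Csf3 to 0.242, Csf2ra to 0.114 and Csf2rb2 to 0.125, with the median of all genes at 0.576.

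The number of genes called was 0 in each edgeR and limma fit, with 669 to 2689 genes at an unadjusted p under 0.05 when 1 library was left out, against 2112 with all 6. The fewest were found without labelled knockdown replicate 2 (669) or 1 (775), and without wt replicate 1 and labelled knockdown replicate 3 there were 3290. With the macrophage markers as the scale there were 3957. DESeq2 called 36 genes over 6 libraries, 71 without wt replicate 1, and 1266 without wt replicate 1 and labelled knockdown replicate 3, where it also called 4 of the 9 genes and 40 genes of the pathway and marker lists. The cause was not tested. With lengths from GENCODE, chosen after seeing the data, 5 of the 9 genes kept their rank of level.

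Equal replicate numbers were not treated as pairs, since the deviations of libraries with the same number correlated at -0.241, 0.06 and -0.337. With this number added as a block, edgeR called 0 genes, 0 of the 9 and 0 of the listed genes, with 1606 genes at an unadjusted p under 0.05. The estimates with the block were -0.75 for Csf1r, -0.42 for Csf2ra, -0.67 for Csf2rb, -0.44 for Csf2rb2, -0.86 for Csf3r, 0.60 for Csf1, 1.63 for Csf2, 1.19 for Il34 and -0.085 for Csf3.

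With 3 libraries a group and 7 to 42 counts of Csf2, the depth and the number of libraries limit what can be said of the low ligands.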
